A study of Mus musculus with 3 samples.

Results

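Genes for voltage-gated channels of potassium, sodium and calcium, for their relatives and accessory subunits, and for the ryanodine receptors were followed in doxycycline-treated mouse melanocytes. The members were all probe sets with a single gene symbol that begins with Kcn, with Scn and a digit, with Cacn, or with Ryr and a digit. They numbered 259 probe sets of 122 genes, out of 34958 probe sets with a single symbol and 45101 in all. The cells were melan-a NRAS61K, a line of immortalized mouse melanocytes with the NRAS61K oncogene, and every group received doxycycline at 1 µg/ml, for 6, 14 or 28 days, with 1 array per time point. No array of untreated cells and none of the 10-day treatment named in the protocols was analysed here, and the sources used here do not give the promoter of the oncogene or whether the line was 1 clone.

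These channels are membrane proteins that open for one kind of ion. Sodium and calcium channels carry current into the cell when the membrane depolarizes, potassium channels carry it out and hold the resting potential, and ryanodine receptors release calcium from the endoplasmic reticulum. They are best known from nerve, heart and muscle, but glia and pigment cells also carry some of them. The inward rectifier encoded by Kcnj10, for example, serves the pigment cells of the inner ear. Pore-forming alpha subunits make the channel, and beta, gamma, alpha2delta and other accessory subunits change its traffic and gating.

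Values are on a log2 scale as far as they themselves show, and they compare arrays for 1 probe set, not probe sets with each other. The base of 2 is inferred, and every fold below assumes it. Each array was given a background, set at the 90th percentile of 112 probe sets for 72 genes of liver, pancreas, muscle, germ cells and other organs that pigment cells should not use. In order of time it lay at 22.85, 22.64 and 22.87, in a table that ran from 1.46 to 30.6. Where the dimmer array lay at or below its background, a fold is given only as a lower bound against that background, and where that bound is under 1 no fold is given. Since each time point had 1 array, the spread between cultures is unknown, no p-value is given, and a difference describes 2 arrays. Probe sets of the same gene that were above the background on both arrays give a measure of part of the array error. Within a gene their log2 differences had an SD of 0.31 for the whole course (day 28 against day 6), 0.30 for the first step and 0.24 for the second. An error shared by all sets of a gene does not enter this SD, and dim sets were left out of it. In such bulk RNA, fewer cells with a transcript and less of it per cell cannot be told apart.

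The melanocyte label was checked on 9 marker genes, of which 7 lay above the background on all 3 arrays, while Tyr (21.94, 22.13 and 21.60 in order of time) and Kit (22.19, 21.96 and 21.72) lay below it. The mean level of the 9 was 24.14, 26.30 and 25.59. The main Nras probe set stood at 26.92, 26.48 and 26.70. Its other sets fell further, to 26.76, 25.98 and 26.29 and to 25.94, 24.82 and 25.11. How far these sets read the oncogene was not tested. Hybridization controls averaged 27.45, 27.53 and 27.53, and the 3' minus 5' log2 difference of Actb, a sign of RNA quality, was 0.58, 0.76 and 0.75.

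The windows around the transcription start of the 3 sodium channel pore genes and 2 potassium channel genes that were 2-fold apart somewhere are shown first, for the letters they do and do not hold. Sequences are from RefSeq, assembly GRCm38.p6, cover 250 bases before to 50 after a start, and were found for 93 of the 122 genes and for 8 of the 12 that were 2-fold apart somewhere. Kcnn4, Kcnf1 and Cacnb4 had windows that are not printed, and Ryr3, Cacna1h, Scn3b and Kcnj14 were without an entry. Capitals mark CG dinucleotides, whose density sets housekeeping-type promoters apart from tissue-type ones.
Scn1a, chr2:66440788-66441087, minus strand: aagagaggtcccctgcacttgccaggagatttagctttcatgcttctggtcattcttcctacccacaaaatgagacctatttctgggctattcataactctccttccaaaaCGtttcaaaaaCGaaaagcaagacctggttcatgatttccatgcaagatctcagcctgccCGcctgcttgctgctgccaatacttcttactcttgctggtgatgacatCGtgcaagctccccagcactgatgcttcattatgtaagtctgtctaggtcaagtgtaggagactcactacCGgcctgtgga
Scn7a, chr2:66784861-66785160, minus strand: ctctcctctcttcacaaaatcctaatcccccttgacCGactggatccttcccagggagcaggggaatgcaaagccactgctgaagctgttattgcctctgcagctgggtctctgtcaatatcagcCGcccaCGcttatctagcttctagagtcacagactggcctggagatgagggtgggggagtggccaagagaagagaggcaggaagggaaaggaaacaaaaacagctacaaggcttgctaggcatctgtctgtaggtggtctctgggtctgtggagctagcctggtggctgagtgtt
Scn8a, chr15:100870395-100870694, plus strand: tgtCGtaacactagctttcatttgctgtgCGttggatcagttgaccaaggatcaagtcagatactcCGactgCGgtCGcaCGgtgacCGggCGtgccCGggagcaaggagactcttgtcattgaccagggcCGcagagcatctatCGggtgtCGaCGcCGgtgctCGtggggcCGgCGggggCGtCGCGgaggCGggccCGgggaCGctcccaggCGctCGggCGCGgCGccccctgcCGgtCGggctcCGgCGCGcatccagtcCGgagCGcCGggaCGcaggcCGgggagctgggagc
Kcnh1, chr1:192190527-192190826, plus strand: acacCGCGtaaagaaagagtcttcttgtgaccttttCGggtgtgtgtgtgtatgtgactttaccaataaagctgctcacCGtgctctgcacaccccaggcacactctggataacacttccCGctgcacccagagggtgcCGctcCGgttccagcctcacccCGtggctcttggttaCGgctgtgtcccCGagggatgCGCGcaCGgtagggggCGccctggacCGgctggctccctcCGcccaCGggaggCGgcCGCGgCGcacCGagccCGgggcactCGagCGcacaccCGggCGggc
Kcnj10, chr1:172340960-172341259, plus strand: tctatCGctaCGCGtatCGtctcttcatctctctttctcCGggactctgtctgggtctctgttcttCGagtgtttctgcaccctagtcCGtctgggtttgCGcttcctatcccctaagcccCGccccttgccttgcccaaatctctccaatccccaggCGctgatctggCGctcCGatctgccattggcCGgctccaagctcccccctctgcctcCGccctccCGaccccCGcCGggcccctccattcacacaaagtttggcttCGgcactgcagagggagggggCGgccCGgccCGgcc
The Scn1a window held 5 CG dinucleotides and the Scn7a window 3, and 62.0% and 76.7% of all 32851 windows held at least as many. Scn8a held 38, Kcnh1 27 and Kcnj10 21, numbers reached by 4.95%, 15.5% and 24.8% of all windows. A second start of Scn8a, not printed, had 12. So Scn1a, Scn7a and Scn8a, all higher at day 14, did not share a CG-rich or CG-poor start, and Scn3b, also higher at day 14, could not be compared.
Both strands of every window were searched for TGANTCA (AP-1), TGACGTCA (CRE), CACGTG (E-box), CATGTG (the core of the M-box read by MITF), AACAAAG (SOX core), TTCAGCACC and GGACAGC (the left and right parts of the neuronal repressor site RE1) and TATAAA. None of the 5 printed windows held any of them. Over all 11 windows of the 8 genes there were 2 matches, CACGTG in the Kcnn4 window and AACAAAG in 1 of the 3 Cacnb4 windows. Of all windows 7.15% held CACGTG and 5.85% AACAAAG, and 14.2% held CATGTG. Over the 128 channel gene windows the share with CATGTG was 4.69%, and 10.2% held GGACAGC against 6.56% of all windows. Every motif searched except GGACAGC was rarer in channel gene windows, TATAAA for example at 5.47% against 13.6%. The median share of G and C was 57.8% in channel gene windows and 52.7% in all windows. The part of base composition in the motif shares was not tested.

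Most channel genes lay at or below the background. Above it were 39, 51 and 49 of the 259 probe sets in order of time, and 62 (23.9%) on at least 1 array. Over all 34958 probe sets with a single symbol the counts were 19664, 20475 and 19573, and the last share was 61.0%. Both rows of counts were highest at day 14, the array with the lowest background. By gene, taking the probe set with the highest mean, 28, 33 and 34 of 122 lay above it in order of time. Over all 18194 genes the counts were 11078, 11429 and 11170. Of the channel genes, 41 (33.6%) lay above it on at least 1 array and 23 on all 3 (18.9%). The same shares of all genes were 65.1% and 58.3%. By the same gene rule, 18 of the 72 silent genes lay above the background on at least 1 array and 7 on all 3. A gene counted as above it is thus not surely expressed. Over all 259 channel probe sets the median was 21.15, 21.21 and 21.38 in order of time, above the 20.92, 20.83 and 20.93 of the silent probe sets. The 197 probe sets that were dim throughout had a median of 20.77. They were chosen for lying at or below the background, so a median near that of the silent sets was nearly fixed in advance. Of the 62 brighter ones, 17 cleared the background by less than 0.5 on their best array and 21 by at least 2.

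**Figure D1:**
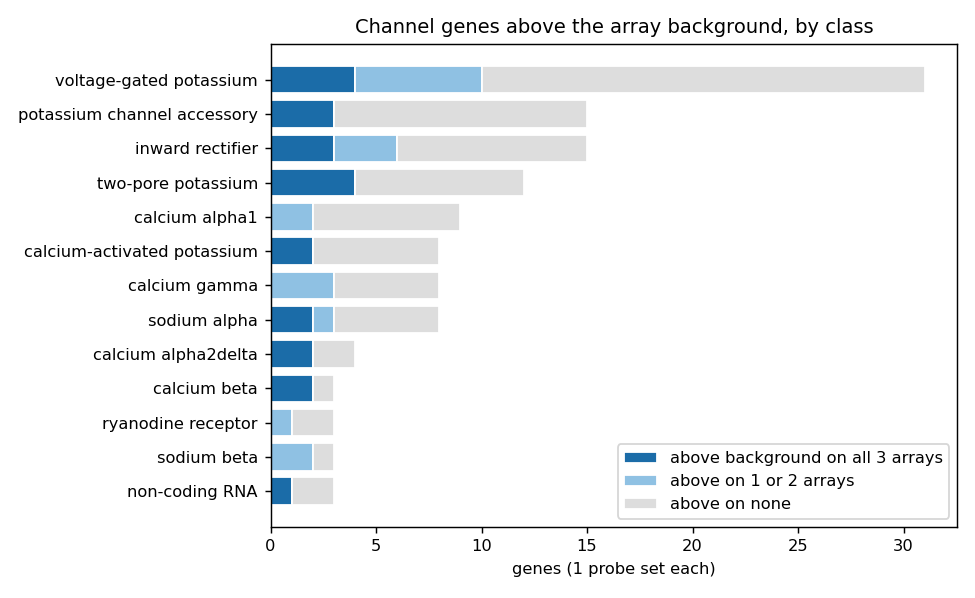
Number of channel genes per class (horizontal axis), split into genes above the background on all 3 arrays, on 1 or 2 arrays and on none. The largest class, voltage-gated potassium channels, has 31 genes, of which 4 lie above on all arrays, 6 on 1 or 2 and 21 on none.

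Among the sodium channel pores, 3 of 8 genes lay above the background on at least 1 array (Scn1a, Scn8a and Scn7a), while Scn2a, Scn3a, Scn9a, Scn10a and Scn11a did not. Of the calcium channel pores, 2 of 9 did, Cacna1a and Cacna1h, and both only on 2 of the arrays. The heart and muscle pores Cacna1c and Cacna1s stayed at or below it. Of the 7 accessory genes of the alpha2delta and beta classes, Cacna2d1, Cacna2d4, Cacnb1 and Cacnb4 lay above it on every array. Of the 8 genes of the calcium gamma class, 0 lay above it on every array and 5 were dim throughout. For the large calcium-activated potassium channel, the accessory subunit gene Kcnmb4 stood at 23.14, 23.81 and 23.39, above the background throughout. The accessory genes Kcnmb1 and Kcnmb2 and the pore gene Kcnma1 were dim on all arrays. Of the ryanodine receptors Ryr3 was above the background, on the day 28 array alone, and Ryr1 and Ryr2 were not.

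Of the 8 channel genes 2-fold higher at day 14 than at day 6, 4 were sodium channel genes (Scn1a, Scn7a, Scn8a and Scn3b). Scn1a, a pore gene known for the firing of inhibitory neurons, stood at 23.05, 26.96 and 25.59 in order of time. The day 6 value was near the background and the other 2 far above it. Day 14 lay 14.9-fold and day 28 5.78-fold above day 6, and day 28 was 2.59-fold below day 14. Its other probe sets had the same course, with 20.66, 25.47 and 23.25 on one and 20.91, 24.92 and 21.30 on another. Both lay below the background at day 6, and the second again at day 28, so that the log2 difference for day 28 against day 6 was 2.60 and 0.39 on these 2 sets. The high value at day 14 was thus seen on all 3 probe sets, and the size of what was left at day 28 differed between them.

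Scn8a, the pore of axon initial segments and nodes of Ranvier, stood at 25.02, 26.71 and 26.15. It was above the background on every array, 3.24-fold higher at day 14 and 2.20-fold higher at day 28 than at day 6. Its 3 other probe sets above the background gave log2 differences of 1.34 to 1.53 in the first step and of 0.80 to 1.13 over the whole course. In the second step the 4 sets ranged from -0.62 to -0.40, so this gene too was highest at day 14.

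Scn7a encodes a relative of these pores that responds to the level of sodium outside the cell rather than to voltage, and it is known from glia. It stood at 20.81, 22.99 and 24.25, below the background at day 6 and above it later. At day 28 it was at least 2.65-fold higher than at day 6 and 2.41-fold higher than at day 14. A second probe set gave 19.02, 23.16 and 24.37, and at least 2.87-fold for day 28 against day 6, and the remaining set was dim on all arrays (19.47, 19.80 and 20.61). Unlike Scn1a and Scn8a, its highest array was day 28.
Of the beta subunits, which bind beside the pore, Scn3b crossed the background at day 14 only, with 21.27, 22.80 and 21.40. The day 14 value of Scn3b lay below the day 6 background, so no fold is given. Scn2b stood at 22.74, 22.57 and 23.02, and it was above the background at day 28 alone.

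**Figure D2:**
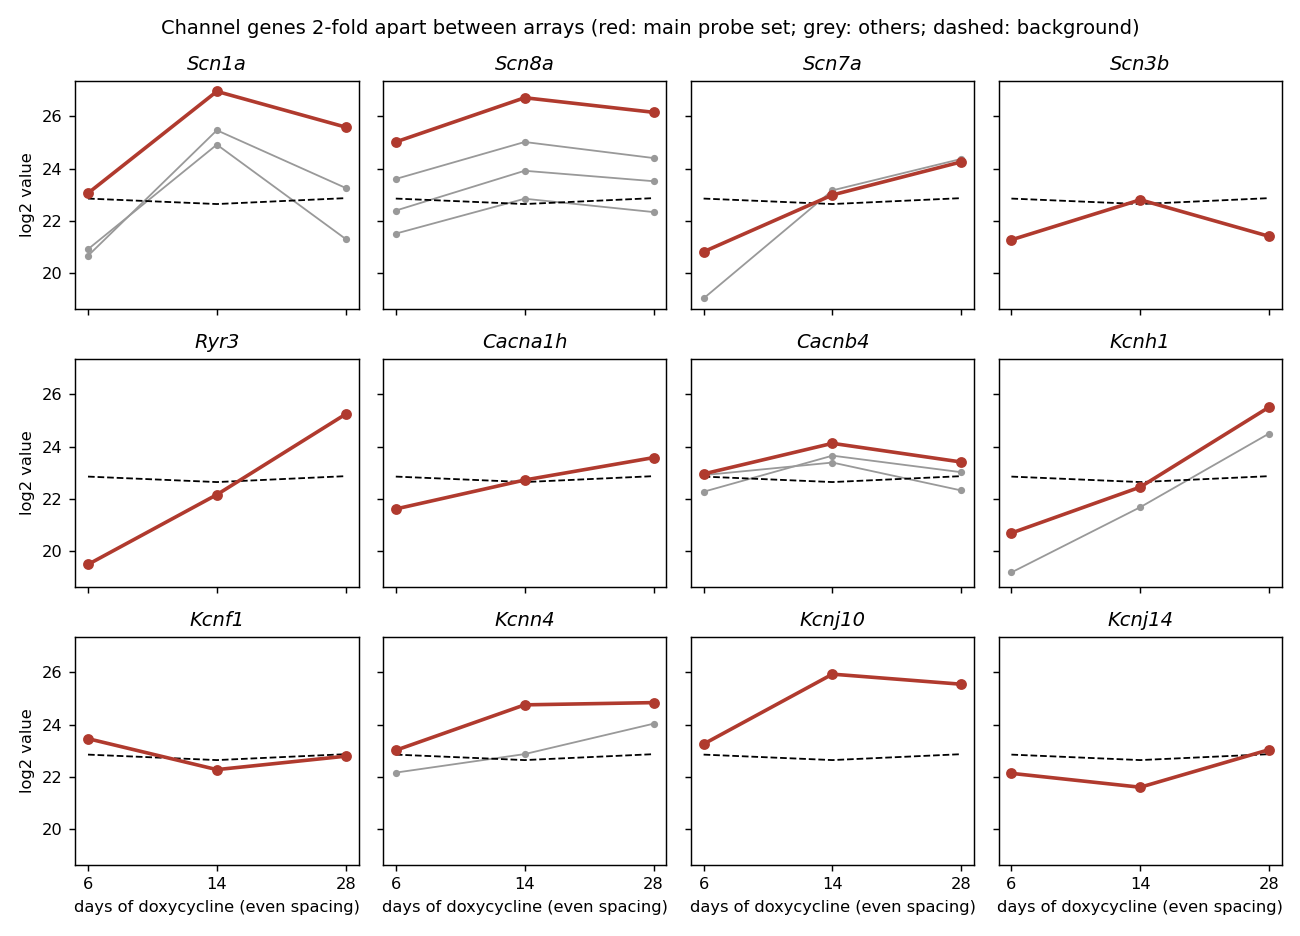
Log2 values (vertical axis) at 6, 14 and 28 days of doxycycline for the 12 channel genes that were 2-fold apart in at least 1 comparison. Red lines are the main probe set, grey lines other probe sets above the background on at least 1 array, and the dashed line is the background. Scn1a peaks at day 14 on every line, and Kcnh1 and Ryr3 lie above the dashed line at day 28 alone.

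Scn1a, Scn7a and 3 further pore genes lie close together on chromosome 2. In chromosomal order the protein-coding genes are Scn3a, Scn2a, Csrnp3, Galnt3, Ttc21b, Scn1a, Scn9a and Scn7a. Scn9a, between the 2 genes that differed, was dim on all arrays at 20.84, 20.91 and 20.74. Scn3a (20.44, 19.89 and 20.67) and Scn2a (21.73, 22.17 and 22.71) also stayed at or below the background. Of the genes of other families in the row, Ttc21b stood at 26.04, 26.34 and 26.35 and Galnt3 at 24.42, 25.16 and 25.52. Large differences were therefore seen at Scn1a and Scn7a. Galnt3 was also past the 2-fold cut for day 28 against day 6. Scn9a showed no signal above the background, so a difference at its low level could go unseen.

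**Figure D3:**
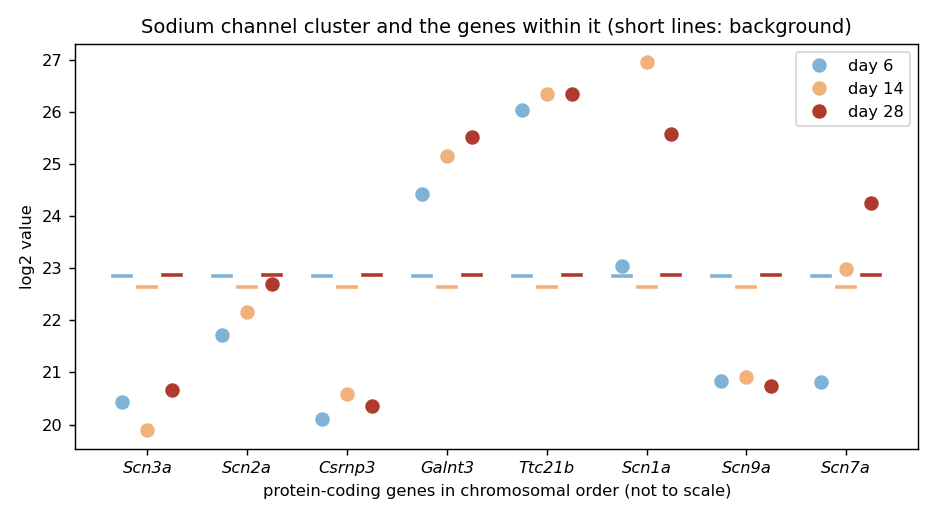
Log2 values (vertical axis) of the sodium channel cluster on chromosome 2, with genes in chromosomal order along the horizontal axis and 1 point per array. Short lines mark each array's background. Scn1a and Scn7a lie above the lines at days 14 and 28, while Scn9a between them stays between 20.74 and 20.91.

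Ryr3 and Kcnh1 were bright on the day 28 array alone. With dim values raised to the background their log2 differences for day 28 against day 6 were 2.39 and 2.66, beside 2.53 for Scn1a. Ryr3, a calcium release channel of the endoplasmic reticulum, stood at 19.48, 22.16 and 25.24 on its main probe set. It was dim on the first 2 arrays, at least 5.25-fold higher at day 28 than at day 6 and at least 6.08-fold higher than at day 14. Its 2 other probe sets stayed at or below the background on all arrays, so this difference rests on 1 probe set. Kcnh1, a potassium channel of the ether-à-go-go type that human tumours often carry outside the brain, stood at 20.69, 22.45 and 25.51. At day 28 it was at least 6.34-fold higher than at day 6 and at least 7.33-fold higher than at day 14. The second probe set of Kcnh1 gave 19.18, 21.68 and 24.50 and lower bounds of 3.14-fold and 3.63-fold. Both Kcnh1 sets were thus above the background at day 28 alone.

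Among the remaining potassium channel genes, Kcnj10 and Kcnn4 were higher from day 14 on. Kcnj10, an inward rectifier of glia and of inner ear pigment cells, stood at 23.25, 25.93 and 25.55. It was 6.40-fold higher at day 14 and 4.90-fold higher at day 28 than at day 6. Kcnn4, a calcium-activated channel known from blood cells and fibroblasts, stood at 23.02, 24.76 and 24.84. That made 3.34-fold at day 14 and 3.55-fold at day 28 over day 6. On its second probe set (22.16, 22.87 and 24.03) more of the difference came in the second step, with day 28 at 2.24-fold over day 14. The 2 sets of Kcnn4 agreed on day 28 against day 6, with log2 differences of 1.83 and 1.87, and not on when it came.
Kcnf1, a silent subunit that modifies other potassium channels, was the 1 gene lower at day 14, at 23.46, 22.27 and 22.79, and at least 1.77-fold lower than at day 6. Kcnj14, another inward rectifier, stood at 22.13, 21.60 and 23.04, with day 28 at least 1.32-fold above day 14. Both were above the background on 1 array only.

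The calcium channel genes Cacna1h and Cacnb4 were 2-fold apart in some comparison. The first, a pore that opens at low voltage, stood at 21.61, 22.72 and 23.58, with day 28 at least 1.66-fold above day 6. Its day 14 value barely cleared the background of that array. Cacnb4, a beta subunit on the inner face of the membrane, stood at 22.95, 24.12 and 23.41, 2.25-fold higher at day 14 than at day 6. The other sets of Cacnb4 gave log2 differences of 1.38 and 0.48 there. Over the whole course the 3 sets gave 0.46, 0.75 and -0.59, with no settled direction.

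Counted over all comparisons, day 28 against day 6 described 38 channel genes, of which 8 (21.1%) were 2-fold higher and 0 lower. Over all 11560 genes described, 6.61% were higher and 4.01% lower. Day 14 against day 6 gave 8 of 36 higher (22.2%) and 1 lower, beside 5.50% and 3.87% of 11691 genes. With arrays shifted to equal hybridization controls the shares of all genes became 4.73% higher and 5.27% lower, while the channel counts were again 8 and 1. Day 28 against day 14 gave 4 of 39 higher and 2 lower, beside 2.18% and 1.46% of 11665. The medians of the channel genes were 0.14, 0.13 and -0.06 in the same order, and those of all genes 0.01, -0.03 and 0.03.
Entry through 1 bright array favours a difference without forcing a 2-fold one. Of the 8 genes 2-fold higher at day 28 than at day 6, Ryr3, Kcnh1, Scn7a and Cacna1h so entered, through day 28. Kcnj12 and Cacna1a also entered through 1 array and differed by 0.84 and -0.85. Kcnq1 did so too and differed by -0.04, but it lay next to the background on both arrays. Of the 41 channel genes, 18 lay above the background on 1 or 2 arrays only, 8 on 2 and 10 on 1. Of all 11843 genes above it on at least 1 array, 626 were so on 2 arrays and 613 on 1. Such entry was thus more frequent among channel genes, so their 2-fold shares and those of all genes described are not a like comparison. Among the 23 above it on all 3 arrays, Scn1a, Scn8a, Kcnj10 and Kcnn4 were 2-fold higher at day 28 than at day 6 and none lower, where 4.87% of such genes were higher and 3.56% lower. For day 14 against day 6 the same 4 and Cacnb4 were higher and none lower, beside 4.42% and 3.36%. For day 28 against day 14, 0 were higher and Scn1a alone was lower, beside 1.23% and 0.971%. The medians of these 23 genes were -0.05, 0.09 and -0.14, so the middle gene of these 23 was nearly level. All comparisons share arrays: day 6 enters the first pair of them, and day 14 enters both steps, once on each side.

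**Figure D4:**
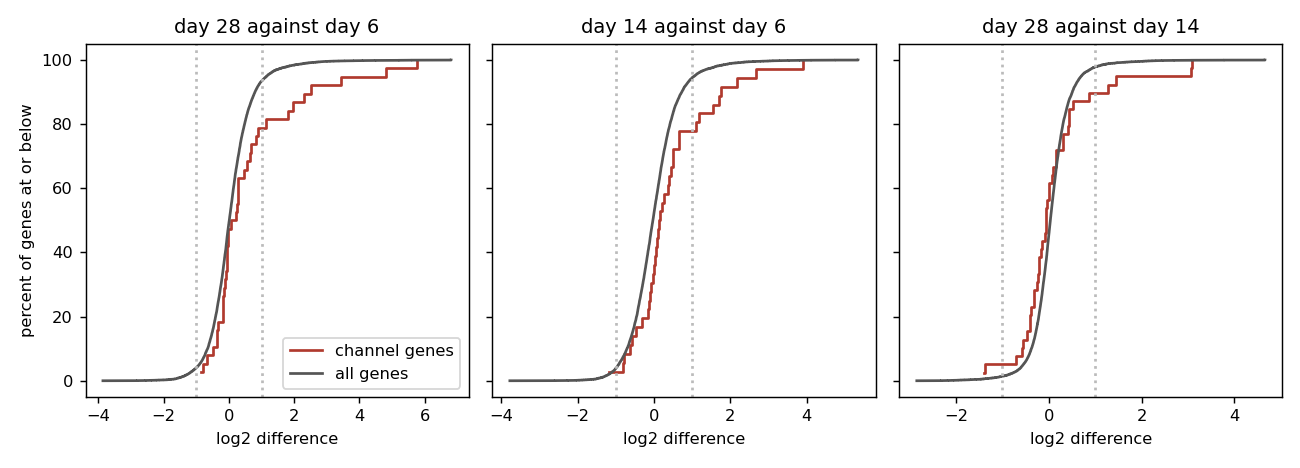
Cumulative share of genes (vertical axis, percent) by log2 difference (horizontal axis) for channel genes and for all genes described in each comparison, with dotted lines at 2-fold. The curves lie close together near 0, with medians of 0.14 and 0.01 for day 28 against day 6, and the channel curve runs to the right at its upper end.

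**Figure D5:**
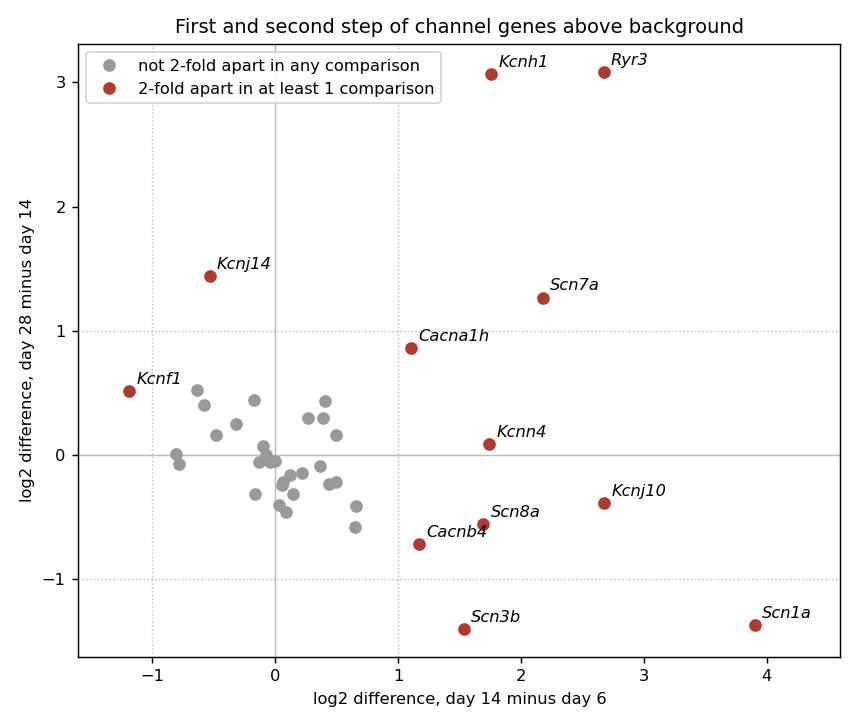
Log2 difference of day 14 minus day 6 (horizontal axis) and of day 28 minus day 14 (vertical axis) for the main probe sets of the 41 channel genes above the background on at least 1 array. Both axes share the day 14 array. Scn1a lies at 3.90 and -1.37, and Ryr3 at 2.67 and 3.09 with its 2 earlier arrays below the background.

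By the values as measured, the time courses fell into different kinds. Scn1a and Scn3b were 2-fold higher at day 14 and then 2-fold lower at day 28, and Scn7a was higher in both steps. Scn8a, Kcnj10, Kcnn4, Cacna1h and Cacnb4 were higher at day 14 with no 2-fold second step. The first steps of Scn7a, Scn3b and Cacna1h rest on day 6 values below the background, and with dim values raised to it their log2 differences became 0.14, -0.046 and -0.13. Ryr3, Kcnh1 and Kcnj14 were higher at day 28 than at day 14 and dim on both earlier arrays. Of the 8 genes 2-fold higher at day 28 than at day 6, 5 had other probe sets above the background on 1 or both arrays. All of these pointed the same way. Apart from a Scn8a set with a log2 difference of 0.80, they were above it at day 28 and not at day 6. Their direction was thus nearly fixed by how they were chosen.

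The other 29 channel genes above the background were 2-fold apart in none of the comparisons. Their log2 differences lay between -0.85 (Cacna1a) and 0.84 (Kcnj12) for day 28 against day 6, and 10 of 27 were above 0. Kcnk2, a leak channel opened by membrane stretch, had the lowest difference among the members bright on all arrays, at 26.29, 25.48 and 25.49, 1.74-fold lower at day 28 than at day 6. Kcnk5 (25.03, 25.07 and 24.67) and Kcnk15 (24.25, 24.34 and 23.88), of the same leak family, differed less. Kcnh2, which repolarizes the heart, stood at 24.72, 25.22 and 25.38, 1.58-fold higher at day 28 than at day 6. Kcnh2 and Kcnh1 belong to the same family, but Kcnh2 was bright on all arrays.
Several genes bright on all arrays differed little over the course. Kcnj11, the pore of the ATP-sensitive potassium channel, stood at 25.92, 25.82 and 25.89. Kcna7, a Shaker-type pore, gave 26.80, 27.24 and 27.01, and Kcnh3, of the ether-à-go-go group, 24.64, 24.50 and 24.45. For day 28 against day 6 these 3 differed by -0.03, 0.21 and -0.18, less than the SD between probe sets of a gene. In the first step Kcna7 differed by 0.44, more than the SD of 0.30 there. The auxiliary subunit genes Kcnab2 (25.25, 24.77 and 24.93) and Kcnip1 (25.27, 25.12 and 24.80) differed by -0.32 and -0.47 for day 28 against day 6, and Kcnab2 by -0.48 in the first step, each more than the SD of its comparison. Cacna2d1, which helps calcium channels reach the membrane, stood at 24.86, 25.23 and 25.14, Cacna2d4 at 24.30, 24.23 and 24.23, and Cacnb1 at 23.75, 23.80 and 23.56. Kcnj6 (23.02, 23.24 and 23.09) and Kcnn1 (23.02, 23.01 and 22.97) lay just above the background throughout. Kcnq1ot1, which the name rule also takes in, is a long non-coding RNA antisense to Kcnq1, and the 4 of its 6 probe sets above the background differed by -0.22 to -0.16 for day 28 against day 6.

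Genes of other channels and of calcium handling were set beside these. Of 37 genes of calcium stores and clearance 28 lay above the background on at least 1 array, and 27 were described for day 28 against day 6, of which 1 (3.70%) was 2-fold higher and 1 lower, with a median of 0.12. Fkbp1b, which binds ryanodine receptors, was at least 1.49-fold higher at day 28 (22.33, 22.50 and 23.42), in the same array in which Ryr3 was bright. Atp2a3, a calcium pump of the endoplasmic reticulum, was at least 1.69-fold lower at day 28 than at day 6 (23.63, 21.52 and 22.39). The shares of store genes lay near or below those over all genes described, 6.61% higher and 4.01% lower.
Of 26 other cation channel genes described for day 28 against day 6, 4 (15.4%) were higher and 1 (3.85%) lower, beside 6.61% and 4.01% of all genes. Trpa1, a channel for irritants, stood at 18.48, 22.11 and 24.64, at least 3.46-fold higher at day 28 than at day 6, dim on both earlier arrays like Ryr3 and Kcnh1. Trpv1, the heat and capsaicin channel, was at least 1.14-fold higher (21.24, 21.42 and 23.03). Anion channels had 2 of 17 (11.8%) higher and 0 lower, with Ttyh1 at 21.00, 24.37 and 23.77 and Lrrc8c, a part of the volume-regulated channel, 2.01-fold higher.
Sodium and potassium pumps and cotransporters had 2 of 11 (18.2%) higher and 0 lower. Slc12a2, which loads cells with chloride, was 2.28-fold higher (28.71, 30.10 and 29.90), and Fxyd3, a small partner of the sodium pump, at least 1.90-fold higher. Channel partners and anchors had 3 of 9 (33.3%) higher and 0 lower. In lists this short 1 gene moves the share by several percentage points. Lgi4, a secreted protein of Schwann cells, was at least 10.4-fold higher at day 28 (22.33, 25.37 and 26.23), and Tspoap1, which ties calcium channels to vesicle release sites, at least 4.51-fold higher (22.00, 22.32 and 25.02).

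Markers of other cell types were set beside the channel genes because many of these channels are known from nerve, muscle and glia. Of 10 neuron markers 3 lay above the background on at least 1 array, Syt1, Tubb3 and Map2, while Snap25, Rbfox3, Stmn2, Syn1, Gad1, Slc17a7 and Elavl4 lay at or below it on every array. Their mean level was 22.05, 21.92 and 21.85 in order of time. Striated muscle markers had 3 of 9 above on at least 1 array, Actc1 and Tnnt2 on all 3 and Acta1 on 2. Myog, Ttn, Ckm, Actn2, Tnni1 and Mylpf were dim. Ckm and Mylpf also belong to the silent list that set the background, so that they were dim was nearly fixed in advance. The mean of striated muscle markers was 22.27, 21.91 and 22.38. Smooth muscle markers had 4 of 6 above, with mean levels of 25.50, 24.39 and 24.08. Of 6 markers of astrocytes and oligodendrocytes, Aqp4 (21.05, 23.34 and 23.07) and Mbp (23.93, 23.30 and 22.43) lay above on some arrays and Gfap, Slc1a2, Mog and Mag on none, with a mean of 21.52, 21.67 and 21.86.
The melanocyte marker mean was highest at day 14, as were Scn1a and Scn8a, with Dct at 23.83, 29.17 and 28.03 and Tyrp1 at 27.58, 29.67 and 27.47, and the part of this move in the channel values was not tested. Fibroblast markers averaged 23.02, 23.31 and 23.27 with 5 of 6 above on at least 1 array, leukocyte markers 23.73, 23.93 and 24.45 with 4 of 5, and endothelial markers 21.72, 22.04 and 22.59 with Cdh5 alone of 5. Pecam1, Kdr, Tek and Emcn of the endothelium and Ptprc of leukocytes lay at or below the background on every array. The endothelial and leukocyte means were highest at day 28, as were Ryr3 and Kcnh1. The endothelial mean moved with Cdh5 (23.70, 25.85 and 27.93). Of the leukocyte markers Lyz2 (24.57, 27.17 and 27.31) and Cd68 (25.09, 23.98 and 25.99) were higher at day 28 than at day 6. Csf1r (24.36, 24.32 and 24.04) and Adgre1 (23.62, 23.35 and 23.49) were not, with log2 differences of -0.31 and -0.13 for day 28 against day 6. The part of these markers in the channel values was not tested.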

How the data were processed

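RNA of 3 cultures was labelled as biotinylated cRNA and hybridized to Affymetrix mouse arrays, per the labels' protocols. The deposited values fit a log2 scale, which no label states, and the 3 columns are identical once sorted, so the authors had applied quantile normalization. A difference common to most genes is thus removed, and folds assume base 2 and an added constant. How probes were summarized: not given in the sources used here. Names came from the platform annotation, updated by RefSeq gene identifier: 34958 had 1 symbol, 932 several and 9211 were not listed. Each of 18194 genes was represented by its brightest probe set by mean value. A gene was described where 1 or both of the arrays compared exceeded the background, and 2-fold means a log2 difference of 1 or more as measured. No test was possible with 1 array per time point, and this number of arrays limits precision.

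Named genes were those 2-fold apart in any comparison, up to 3 bright genes per class, and the 2 largest differences of each list of related genes. Exceptions, chosen after their values were seen, are members named as dim or as the ends of a range, and the neighbours of differing genes. Members and lists were chosen with earlier results of these data known. Alternatives covered scaling, probe set choice, background, dim values and fold size. The counting was tested on simulated data for 18194 genes. Calculations used Python 3.11.15, numpy 2.4.6, pandas 2.3.3 and matplotlib 3.10.9.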

Additional observations from a re-analysis of the deposited data

How the results depend on the processing

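The 2-fold counts of channel genes were the same after scaling. Counts above the background could not change with scaling, since a shift of an array moves its background as well. Counts near the background were not stable to the other alternatives. With the 75th percentile of the silent genes as background, 70, 80 and 83 probe sets lay above it in order of time and 96 on at least 1 array. By gene these were 47, 53, 53 and 62. Of 58 genes described, 13 were 2-fold higher at day 14 than at day 6, beside 5.23% of all genes. With the 95th percentile, 25 probe sets lay above at day 6. There 1 of 31 genes was 2-fold lower at day 28 than at day 14, beside 1.41% of all genes. With the mean of all probe sets of a gene, 5 of 20 genes were higher and 0 lower for day 14 against day 6. With dim values raised to the background, 5 of 36 were higher and 0 lower. The shares of all genes were 4.65% higher and 3.53% lower with the mean, and 4.63% and 3.30% with raised values. The raised values also left 1 of 39 genes lower for day 28 against day 14, beside 1.05% of all genes. They turned the sign of Cacna1h (-0.13) and Scn3b (-0.046) for day 14 against day 6 and of Scn3b (0.063) for day 28 against day 14, by the alternative's own construction, since these genes lay near or below the background. At 1.5-fold, 3 of 38 channel genes were lower at day 28 and 4 of 36 at day 14 than at day 6. The shares of all genes lower were 12.2% and 14.2%. The other 62 counts under an alternative stayed within 1.5 times of the count reported. They include the counts above the background after scaling, which were fixed in advance. Of the values of single genes, 152 moved by less than the SD between probe sets, 15 by more, and 3 changed sign as given. Many of the 152 could not move, so this count is no measure of stability. Another background, fold cut or silent list leaves the difference of a gene as it was, and scaling shifts all genes alike. The 15 and the 3 all came from the mean of probe sets and the raised dim values. Leaving the 3 highest genes, Cela1, Ctrb1 and Prss2, out of the silent list, an alternative chosen after seeing the data, gave backgrounds of 22.76, 22.60 and 22.79. No paired analysis was possible because each time point had 1 array. Signal over background limits all statements on dim genes.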

Other observations

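The protein-coding neighbours of the channel genes that differed were read in the gene order of RefSeq's GRCm38.p6. Aven, an inhibitor of cell death whose gene lies next to Ryr3 without overlapping it, stood at 25.43, 24.10 and 23.42 in order of time and was lower by a log2 difference of -2.01 at day 28 against day 6, while Ryr3 was higher. The neighbour of Ryr3 on the other side, Tmco5b, was dim on all arrays. Beside Kcnh1, Rcor3 stood at 25.35, 25.12 and 25.60 and Hhat was dim. Kcnj9, next to Kcnj10 and an inward rectifier of the same family, was above the background at day 14 alone (22.29, 22.94 and 22.36). A second of its 4 probe sets was so at day 28 alone (21.23, 21.97 and 22.91), and the remaining 2 were dim on all arrays. Pigm, on the other side of Kcnj10, stood at 25.98, 25.89 and 25.55, without the difference seen at Kcnj10. Slc4a8, a sodium-driven bicarbonate exchanger gene next to Scn8a, stood at 27.83, 28.15 and 28.17. These neighbours were chosen for their position, and no cause was tested.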
